A study of Rattus norvegicus with 6 samples.

Results

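Genes of the motile cilium and its core, the axoneme, were described in rat spinal cord lesions. The 66 members were the rows of the deposited gene count table whose symbols belong to the families Dnah, Dnai, Cfap, Rsph and Tekt, together with Foxj1, Ak7, Capsl, Ccdc39, Ccdc40, Spag6, Spag17 and Hydin, out of 33455 rows in all. RNA was sequenced from pieces of about 5 mm3 taken at the centre of a contusion lesion at T9, in 3 Piezo Gel+US rats and 3 Gel+US rats labelled as biological replicates. All were wild type (Rattus norvegicus), all were injured, and both groups received ultrasound at 100 Hz and 1.0 W/cm2 for 10 min daily over 4 weeks, so that the groups differed in the label of the gel. No uninjured or untreated rats were analysed here, and the labels give neither age nor strain.

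Motile cilia are whip-like projections built on a ring of microtubule doublets around a central pair. Dynein arms on the doublets slide them against each other, radial spokes carry signals from the central pair to the arms, and proteins inside the doublets stiffen them. In the spinal cord such cilia stand on the ependymal cells that line the central canal and move cerebrospinal fluid, and Foxj1 is the transcription factor that switches on the genes for making them. Several families here are shared with the sperm tail, and some of their members also serve immotile cilia or centrioles.

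No axoneme gene differed between the groups past the threshold (edgeR's quasi-likelihood test with Benjamini-Hochberg adjustment over 17066 genes, adjusted p below 0.05). The call rate over all genes was 0% as well, and the adjusted p of the members lay between 0.994 and 0.998. Of the 66 members, 56 had enough counts to be tested. Of these, 45 had a lower fitted level in Piezo Gel+US and 11 a higher one, or 80.4% lower, against 52.9% of all genes tested. With each library left out in turn, 35 of the 56 stayed lower in every fit, 6 stayed higher and 15 turned sign in at least 1 fit. Each of these fits kept Piezo Gel+US 2, Gel+US 2 or both. Without both, an alternative chosen after seeing the data, 12 of the 56 turned sign. The same shares over all genes were not computed, so these counts are no result about the members. The median log2 fold change, Piezo Gel+US over Gel+US, was -0.57 over the members and -0.02 over all genes. Without regard to multiple testing, 5 members had a p below 0.05 and were lower, 8.93% of those tested against a background of 0.721%. No member had such a p and was higher, against a background of 1.38%. DESeq2 called 0 genes too, with 652 genes at an unadjusted p below 0.05. In 8 members, or 14.3%, every Piezo Gel+US library lay below every Gel+US library, against 2.73% of all genes. In none did every Piezo Gel+US library lie above, against 4.08% of all genes. Capsl is among the 45, the 5 and the 8, and it passed the count filter only through its Gel+US libraries. Its lower level thus lends these counts no support.

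The 2 libraries numbered 2 lay farthest apart. Piezo Gel+US 2 was the lowest of the 6 libraries for 31 of the 56 members, or 55.4%, against 28.4% of all genes. Gel+US 2 was the highest for 32 of the 56, or 57.1%, against 19.0% of all genes. The mean of the members' log2 CPM, each centred on its own mean over the 6 libraries, was 0.168, -0.741 and -0.333 in Piezo Gel+US 1, 2 and 3, and 0.197, 0.663 and 0.045 in Gel+US 1, 2 and 3. The mean over the Piezo Gel+US libraries was -0.302 ± 0.455, against 0.302 ± 0.322 over the Gel+US libraries (SD, n = 3 each), and Piezo Gel+US 1 lay inside the range of the Gel+US libraries. The members' median log2 fold change was -0.42 without Piezo Gel+US 2, -0.28 without Gel+US 2, and -0.09 without both, an alternative chosen after seeing the data.

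**Figure D1:**
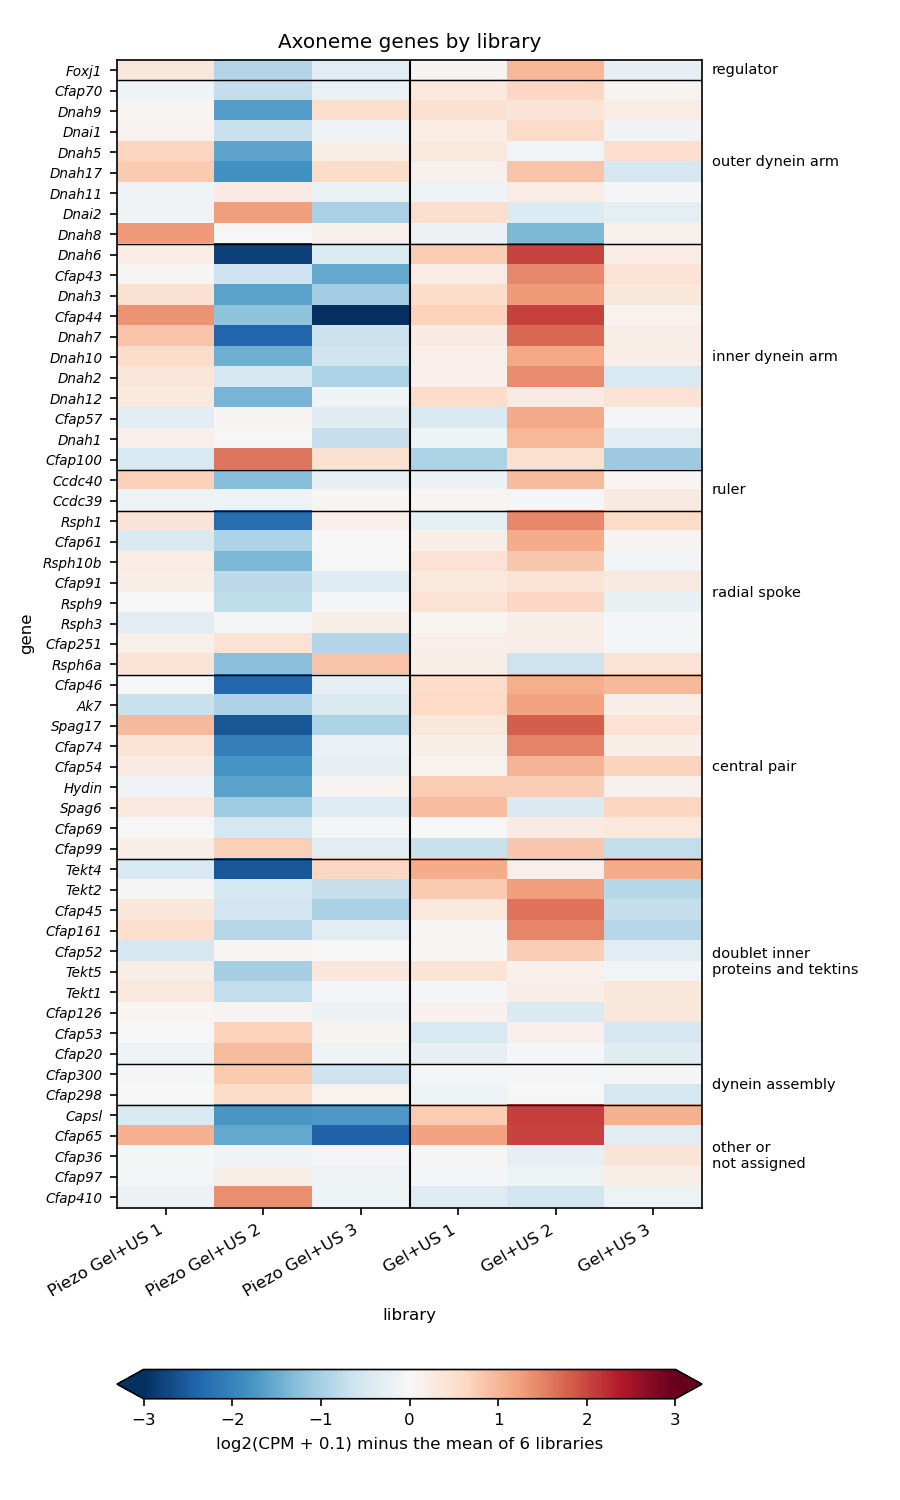
Each row is 1 of the 56 tested axoneme genes and each column 1 library. Colour gives log2(CPM + 0.1) minus the gene's mean over the 6 libraries, on a scale whose ends take in larger values, and black lines part the groups and the axoneme parts. The darkest blue cells are mostly in Piezo Gel+US 2 and the darkest red cells mostly in Gel+US 2, which were the lowest library for 31 genes and the highest for 32.

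The libraries held 17212653 to 21436820 counts assigned to genes. Levels are given as CPM, counts scaled to a common library size, on totals scaled by TMM, edgeR's trimmed mean of M-values. A low level is a small number of counts: Capsl had 5, 1 and 1 counts in the Piezo Gel+US libraries and 15, 36 and 19 in the Gel+US libraries. In bulk tissue, fewer ciliated cells in the piece and less RNA per cell cannot be told apart.

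Other tissue components also varied between the pieces. All 7 tested markers of Schwann cells, the myelin-forming cells of peripheral nerve, had a higher fitted level in Piezo Gel+US, with a median log2 fold change of 1.90, or 0.69 without Piezo Gel+US 2. Their summed level was 1420, 9100 and 2790 CPM in Piezo Gel+US 1, 2 and 3, and 871, 1520 and 1310 CPM in Gel+US 1, 2 and 3. The library with the highest sum was thus the one with the lowest mean level of axoneme genes. Piezo Gel+US 2 also had the lowest sums of astrocyte markers, at 2730 CPM, of oligodendrocyte markers, at 10400 CPM, and of microglia and macrophage markers, at 309 CPM. Gel+US 2, the highest library for axoneme genes, had the highest sums of T cell markers, at 85.7 CPM, and of fibroblast and meningeal markers, at 8340 CPM. Piezo Gel+US 2 came next in fibroblast and meningeal markers, at 6550 CPM. Gel+US 2 was also the lowest Gel+US library for astrocyte markers, at 4290 CPM, oligodendrocyte markers, at 11200 CPM, and neuron markers, at 2580 CPM. The libraries numbered 2 were thus alike in some components and unlike in others. All 12 neuron markers were lower in Piezo Gel+US, with a median of -0.68, and summed to 1970 to 9040 CPM there and to 2580 to 17900 CPM in Gel+US. Without Gel+US 3 the neuron median was -0.047, with 9 of 12 lower. The part of these components in the axoneme result was not tested beyond the values with libraries left out.

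Levels between genes can be compared only per length. By mean CPM per kilobase over the 6 libraries, the 5 members with the most signal were Cfap36 at 71.8, Cfap410 at 38.8, Cfap20 at 23.3, Cfap298 at 16.9 and Cfap100 at 16.4. Foxj1 stood at 6.45 on the same scale. The 12 tested dynein heavy chains, very long genes, lay between 0.0707 for Dnah8 and 1.84 for Dnah5, except Dnah12 at 8.99. In counts, Cfap36 and Dnah12 made up 16.4% each of the members' total. The summed level of all members was 623 ± 31.4 CPM in Piezo Gel+US and 708 ± 48.7 CPM in Gel+US (SD, n = 3 each), with 654, 623 and 591 CPM in Piezo Gel+US and 677, 764 and 684 CPM in Gel+US.

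Foxj1, the master regulator, had 19.1, 8.20 and 12.1 CPM in Piezo Gel+US 1, 2 and 3, and 16.0, 30.2 and 12.8 CPM in Gel+US 1, 2 and 3. The ranges overlapped, with the highest level in Gel+US 2 and the lowest in Piezo Gel+US 2. Its log2 fold change was -0.58 (95% interval -1.62 to 0.45, edgeR), or -0.97 without Piezo Gel+US 1, -0.14 without Gel+US 2 and 0.11 without both libraries numbered 2. Of 9 tested regulators of ciliogenesis under other symbols, such as the Rfx factors, 5 were lower and 4 higher, with a median of -0.07 on the log2 scale. Those with the lowest p were Ccdc78, which acts in making the many centrioles of multiciliated cells, at -0.49, and Cep152, a centriole duplication protein, at 0.25.

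The promoters of the members are shown because Rfx factors and forkhead factors such as Foxj1 bind known short motifs in cilium genes. RefSeq (GRCr8) windows of 300 bases, 250 before to 50 after the annotated start, were matched by symbol to 56 of the 66 members. The X-box was searched as GTNNCC followed by GNAAC with either 2 or 3 bases of any kind between them, on both strands. It was present in 14 of the 56 windows, or 25.0%, and in 959 of 27457 windows of all genes, or 3.49%. A single arm of it, the letters GTTGCC, was present in 33.9% of member windows and 12.2% of all windows, partly at the same places as the full motif. The forkhead letters GTAAACA were in 3.57% of member windows, in Cfap20 and Cfap251, and in 3.77% of all windows. The median GC content was 57.1% in member windows and 52.3% in all windows. The GC-rich letters GGGCGG were in 51.8% of member windows, 34.9% of all and 46.2% of the 17287 windows of genes with a name, and the TATAAA letters in 8.93% of member windows and 14.3% of all. A match is a description of letters and not a mapped binding site.

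The X-box matches of the 13 tested members are printed with 8 flanking bases on each side. They run 5′ to 3′ on the strand named, with the match in capitals. The letters that the search required are shared by construction, and only the free positions and the flanks can differ. Cfap61 holds a second match after its start that is not printed, and the 14th member with a match, Cfap58, was too low to test.
Hydin (chr19:55146444-55146473, minus strand): taccatctGTTGCCACAGCAACcgctaggg
Spag6 (chr17:86261946-86261975, minus strand): acgaagccGTCCCCCCGGCAACagtaggtc
Cfap44 (chr11:69789901-69789930, plus strand): ttactgcgGTTGCCACAGCAACgccactcc
Dnah2 (chr10:54766050-54766079, plus strand): atgcacgcGTCGCCATGGCAACtcggggcc
Dnah12 (chr16:1944682-1944711, minus strand): acaacataGTCACCATGGAAACtgtatgac
Dnah9 (chr10:51364062-51364090, minus strand): ctccaccaGTTTCCCAGCAACaacgacgc
Dnai1 (chr5:61525972-61526000, minus strand): ctgacgcgGTTACCCAGCAACagacaggc
Dnai2 (chr10:100258952-100258980, minus strand): gtttaccgGTTGCCTAGCAACcctggctg
Cfap61 (chr3:153807525-153807553, plus strand): ccatgattGTAGCCGCGGAACgcgagcga
Tekt2 (chr5:143907740-143907768, plus strand): tggctctgGTTGCCTAGCAACcgcccccc
Tekt4 (chr10:14992263-14992292, minus strand): ggctcctgGTTGCCTCAGGAACattgtata
Cfap45 (chr13:87521810-87521839, minus strand): gctgacgcGTTACCACAGCAACcaagaccc
Cfap298 (chr11:43677592-43677621, plus strand): aagtagctGTTGCCCGGGCAACcgaaaccc

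The matches in Hydin and Cfap44 have the same core letters although the genes act in different structures. Among tested members with a window, 11 of the 13 with an X-box had a lower fitted level in Piezo Gel+US, with a median log2 fold change of -0.88. Of the 36 without one, 29 were lower, with a median of -0.45. This is a description and was given no test. Full windows follow for Hydin, which holds an X-box just before the start, in capitals and read here on the other strand, and for Ak7 and Capsl, the members with the lowest p, which hold neither a full X-box nor the forkhead letters.
Hydin (chr19:55146216-55146515, plus strand): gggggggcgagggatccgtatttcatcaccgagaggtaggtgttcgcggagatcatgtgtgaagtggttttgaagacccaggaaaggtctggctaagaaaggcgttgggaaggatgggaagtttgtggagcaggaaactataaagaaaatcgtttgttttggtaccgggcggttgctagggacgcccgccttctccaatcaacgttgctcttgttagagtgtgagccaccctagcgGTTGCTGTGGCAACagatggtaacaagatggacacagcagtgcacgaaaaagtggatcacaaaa
Ak7 (chr6:130376354-130376653, plus strand): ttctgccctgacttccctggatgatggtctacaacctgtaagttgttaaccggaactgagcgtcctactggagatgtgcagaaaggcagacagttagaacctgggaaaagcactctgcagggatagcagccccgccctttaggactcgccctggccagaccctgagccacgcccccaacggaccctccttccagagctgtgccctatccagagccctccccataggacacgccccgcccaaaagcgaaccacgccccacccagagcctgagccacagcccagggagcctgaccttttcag
Capsl (chr2:60121912-60122211, plus strand): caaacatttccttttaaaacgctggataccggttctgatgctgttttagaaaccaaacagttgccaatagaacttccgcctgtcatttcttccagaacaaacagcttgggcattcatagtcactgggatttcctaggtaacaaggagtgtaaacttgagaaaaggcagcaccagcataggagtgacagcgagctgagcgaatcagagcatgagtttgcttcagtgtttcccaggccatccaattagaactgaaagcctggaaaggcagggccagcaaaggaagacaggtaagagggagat

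The central pair stood lowest of the larger axoneme parts, with 8 of its 9 tested members lower in Piezo Gel+US and a median log2 fold change of -1.04. Piezo Gel+US 2 was the lowest library for 8 of the 9 and Gel+US 2 the highest for 6, and the median was -0.65 without Piezo Gel+US 2 and -0.41 without both libraries numbered 2. Ak7, an adenylate kinase of motile cilia, had 1.17, 0.956 and 1.40 CPM in Piezo Gel+US 1, 2 and 3, against 2.96, 4.55 and 2.21 CPM in Gel+US 1, 2 and 3. Every Piezo Gel+US library lay below every Gel+US library, with a mean of 1.18 ± 0.221 CPM in Piezo Gel+US and 3.24 ± 1.2 CPM in Gel+US (SD, n = 3 each). The log2 fold change was -1.46 (95% interval -2.45 to -0.47), with an unadjusted edgeR p of 0.0105 and an adjusted p of 0.994. Cfap46, a protein of a projection on the central pair, had 3.73, 0.654 and 3.16 CPM in Piezo Gel+US and 5.51, 8.11 and 7.42 CPM in Gel+US. Its ranges did not overlap either, and its log2 fold change was -1.48, or -1.03 without Piezo Gel+US 2.

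Hydin, a giant central-pair protein whose loss in mice causes hydrocephalus, had 10.5, 3.62 and 11.9 CPM in Piezo Gel+US and 19.3, 18.9 and 12.3 CPM in Gel+US. Piezo Gel+US 1 and 3 lay near Gel+US 3, Gel+US 1 and 2 lay well above them, and Piezo Gel+US 2 was lowest. Its log2 fold change was -0.96 (95% interval -2.05 to 0.13), or -0.60 without Piezo Gel+US 2. Spag17, a central-pair scaffold, had 1.07, 0 and 0.207 CPM in Piezo Gel+US and 0.651, 2.00 and 0.702 CPM in Gel+US, and these ranges overlapped. Its log2 fold change of -1.39 was -3.38 without Piezo Gel+US 1 and -0.67 without Gel+US 2. Spag6, another central-pair protein, was at -0.88 on the log2 scale, or -1.38 without Piezo Gel+US 1 and -0.56 without Piezo Gel+US 2. A second row with the same protein match as Spag6 held 197 counts over the 6 libraries, so that reads may be split between them. The central-pair members with the most signal per kilobase were Cfap69 at 4.47 and Cfap99 at 3.71, with log2 fold changes of -0.36 and 0.27. Without Piezo Gel+US 2 these were -0.22 for Cfap69 and -0.049 for Cfap99, whose sign turned.

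**Figure D2:**
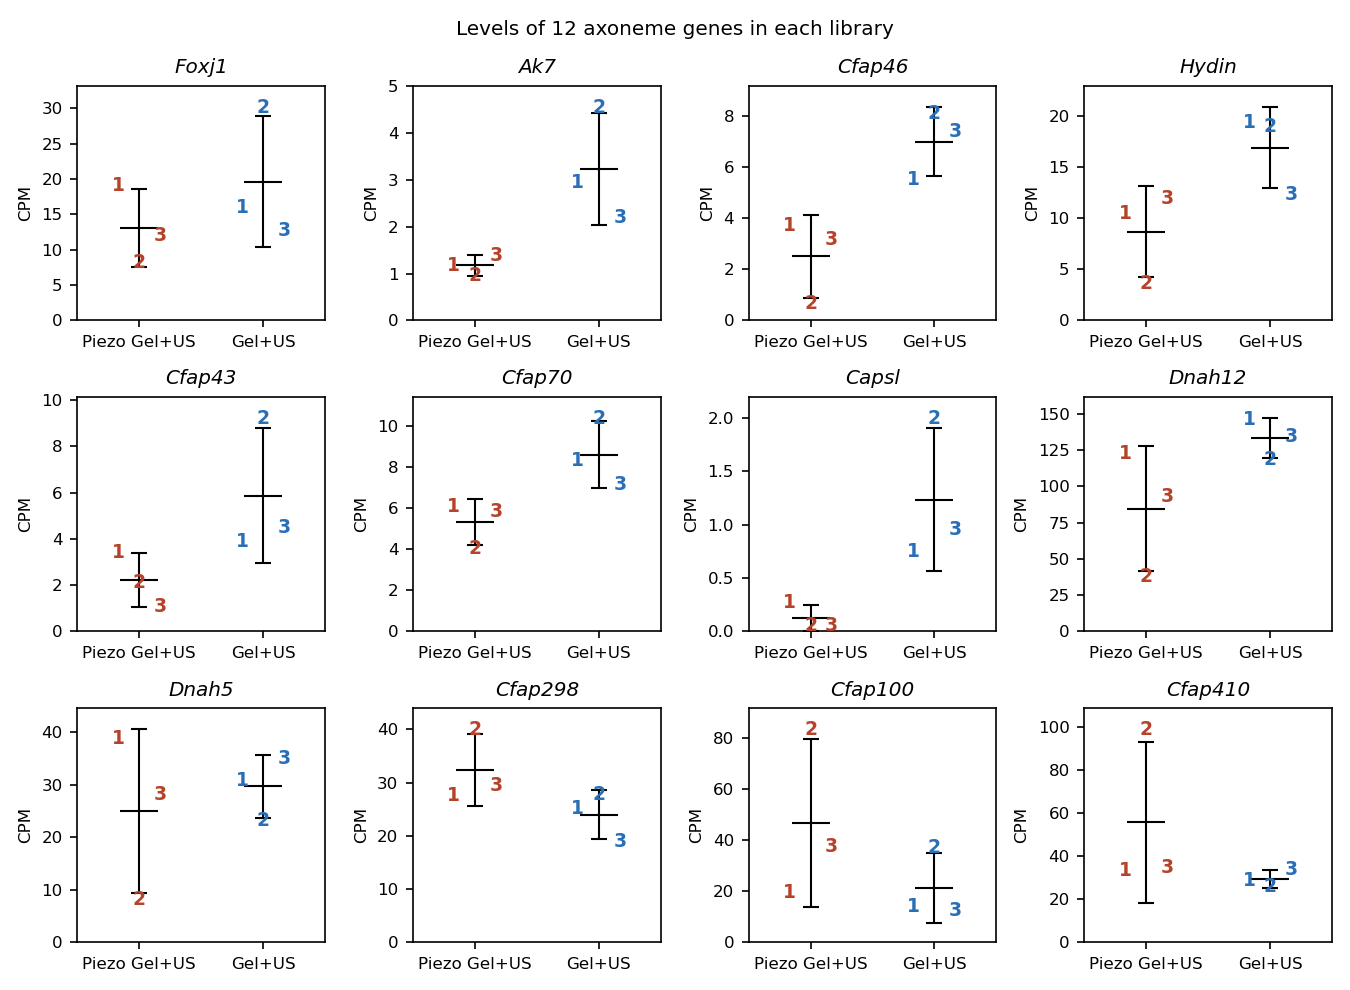
Each panel gives the CPM of 1 gene on an axis that includes 0. Digits are the replicate numbers of the libraries at their values, red for Piezo Gel+US and blue for Gel+US, and the horizontal bar with whiskers is the mean ± SD of 3 libraries. In the panels of Ak7, Cfap46, Hydin, Cfap43, Cfap70 and Capsl all red digits lie below all blue digits, while in Cfap100 and Cfap410 Piezo Gel+US 2 stands highest at 83.2 and 99.0 CPM.

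Inner dynein arms, which shape the bend of the cilium, were next, with 10 of 11 tested members lower and a median of -0.88, or -1.64 without Piezo Gel+US 1, -0.43 without Gel+US 2 and -0.096 without both libraries numbered 2. Cfap43, part of the tether that holds an inner arm to the doublet, had 3.42, 2.11 and 1.09 CPM in Piezo Gel+US and 3.91, 9.22 and 4.51 CPM in Gel+US. The ranges did not overlap, but Piezo Gel+US 1 and Gel+US 1 were close, and the log2 fold change was -1.41 with an unadjusted edgeR p of 0.0372, or -0.94 without Gel+US 2. Dnah6, an inner-arm heavy chain, had 2.77, 0.252 and 1.76 CPM in Piezo Gel+US and 4.06, 9.89 and 2.76 CPM in Gel+US. Its log2 fold change of -1.80 was the lowest of the inner arm, and its interval, -3.84 to 0.24, included 0. Without Gel+US 2 it was -1.10.

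Dnah12, the most abundant heavy chain here, had 123, 38.0 and 93.1 CPM in Piezo Gel+US and 146, 119 and 135 CPM in Gel+US. Piezo Gel+US 1 lay within the Gel+US range and Piezo Gel+US 2 far below every other library. The log2 fold change was -0.65, or -0.31 without Piezo Gel+US 2. It overlaps a low row on the same strand that held 110 counts, against 12600 for Dnah12. Dnah3, another heavy chain, was at -1.28, or -2.19 without Piezo Gel+US 1. A second row with the same protein match held 188 counts, against 419 for Dnah3, so that reads may be split between them. It also overlaps Tmem159 on the opposite strand over 60956 bases, and the sources used here do not say whether the counting used strand. Over all 12 tested heavy chains of both arms, 11 were lower in Piezo Gel+US, and 8 were lowest in Piezo Gel+US 2.

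Cfap100, known from Chlamydomonas as a partner of inner-arm dynein, ran the other way. It had 19.6, 83.2 and 37.3 CPM in Piezo Gel+US and 14.0, 37.2 and 12.6 CPM in Gel+US, both groups being highest in library 2. The log2 fold change was 1.14 with an unadjusted edgeR p of 0.118, or 0.41 without Piezo Gel+US 2 and 1.80 without Gel+US 2. In the fit that blocks on replicate number the unadjusted edgeR p was 0.00487, with 2.95% of all genes higher at a p below 0.05, and no gene was called in that fit either. Among intermediate chains listed under older symbols, and so outside the 66 members, Wdr63 was at -1.66 and Wdr78 at -0.61, while Casc1 was at 0.23.

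Outer dynein arms, the main motors of beat frequency, were closer to no difference, with 6 of 8 tested members lower and a median of -0.15. Cfap70, associated with the outer arm, had 6.08, 4.02 and 5.85 CPM in Piezo Gel+US and 8.32, 10.4 and 7.17 CPM in Gel+US. The ranges did not overlap and the spread within groups was small, with 5.32 ± 1.13 CPM in Piezo Gel+US and 8.62 ± 1.63 CPM in Gel+US (SD, n = 3 each). The log2 fold change was -0.70 with an unadjusted edgeR p of 0.0449 and an adjusted p of 0.994. Dnah5, the outer-arm heavy chain most often mutated in human primary ciliary dyskinesia, had 38.7, 8.15 and 28.0 CPM in Piezo Gel+US and 30.8, 23.2 and 35.0 CPM in Gel+US. Without Piezo Gel+US 2 its sign turned, at 0.16. The intermediate chain Dnai1 was at -0.46, or -0.27 without Piezo Gel+US 2, and Dnah8, a heavy chain known from the sperm tail, was at 1.03 with 2.24, 0.855 and 0.983 CPM in Piezo Gel+US and 0.751, 0.278 and 0.952 CPM in Gel+US. Without Piezo Gel+US 1 it was 0.45.

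Radial spokes had 7 of 8 tested members lower and a median of -0.61, with 6 members lowest in Piezo Gel+US 2 and 6 highest in Gel+US 2. Cfap61, of a complex at the spoke base, had 1.60, 1.11 and 2.17 CPM in Piezo Gel+US and 2.50, 4.89 and 2.35 CPM in Gel+US. Its neighbour in that complex, Cfap91, had 1.76, 0.855 and 1.19 CPM in Piezo Gel+US and 1.95, 2.11 and 1.90 CPM in Gel+US. In both genes the ranges did not overlap but came close, with log2 fold changes of -0.99 for Cfap61 and -0.65 for Cfap91. Cfap61 was at -0.59 without Gel+US 2, and Cfap91 at -0.97 without Piezo Gel+US 1. The spoke-head gene Rsph9, with the most signal per kilobase of the spoke members at 4.18, was at -0.57, or -0.36 without Piezo Gel+US 2.

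The molecular ruler, Ccdc39 and Ccdc40, sets the spacing of arms and spokes along the doublet. Ccdc39 had 32.8, 32.5 and 37.3 CPM in Piezo Gel+US and 37.5, 34.5 and 43.5 CPM in Gel+US, with overlapping ranges and a log2 fold change of -0.17, or -0.084 without Gel+US 3. It shares 1271 bases with Ttc14 on the opposite strand, which held 13293 counts over the 6 libraries against 4221 for Ccdc39. Ccdc40 was at -0.45, at -1.16 without Piezo Gel+US 1, at -0.021 without Gel+US 2, and at 0.36 without both libraries numbered 2.

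Among the proteins inside the doublets, the tektins included, 8 of 10 tested members were lower, with a median of -0.31. Tekt2 was at -1.08, or -0.60 without Gel+US 2, with 1.01, 0.654 and 0.569 CPM in Piezo Gel+US and 1.75, 2.50 and 0.501 CPM in Gel+US, so that Gel+US 3 was the lowest of all. Cfap20, an inner-junction protein, had 25.8, 54.7 and 25.4 CPM in Piezo Gel+US and 23.9, 27.1 and 22.1 CPM in Gel+US. Its log2 fold change of 0.54 came to 0.07 without Piezo Gel+US 2. Cfap53 stood at 0.53, or 0.28 without Piezo Gel+US 2. Cfap126 was at -0.054, and its sign turned without Gel+US 3, at 0.12.

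The dynein assembly members, which act in the cytoplasm before the arms are shipped, were both on the higher side. Cfap298 had 27.6, 40.0 and 29.4 CPM in Piezo Gel+US and 25.1, 27.8 and 18.9 CPM in Gel+US, with overlapping ranges and a log2 fold change of 0.43, or 0.25 without Piezo Gel+US 2. Cfap300 was at 0.20, and at -0.28 without Piezo Gel+US 2. Among 15 tested genes listed as assembly factors under other symbols, 11 were lower and 4 higher, with a median of -0.18, Lrrc56 at -0.50 and Dnaaf1 at -1.09 among them. The median was the value of Mns1, which was also listed among the doublet inner proteins.

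Capsl, a calcium-binding protein of the calcyphosine family, had the lowest p of all members. It stood at 0.267, 0.0503 and 0.0517 CPM in Piezo Gel+US and at 0.751, 2.00 and 0.952 CPM in Gel+US. All Piezo Gel+US libraries lay below all Gel+US libraries, and the log2 fold change was -3.27 (95% interval -5.18 to -1.36), with an unadjusted edgeR p of 0.00499 and an adjusted p of 0.994. Leaving out 1 library at a time kept it between -4.45 and -2.75. Only the Gel+US libraries of Capsl reached the minimum count of 10, so it was tested because it was high there. Its p, interval, separation and range are therefore no support for a difference. Cfap65, a sperm-tail gene in mice, was at -1.50, or -3.37 without Piezo Gel+US 1 and -0.86 without Gel+US 2. Cfap410, which also acts at the centriole and in photoreceptors, had 33.6, 99.0 and 34.8 CPM in Piezo Gel+US and 28.8, 26.0 and 34.1 CPM in Gel+US. The 5 libraries other than Piezo Gel+US 2 lay between 26.0 and 34.8 CPM, and its log2 fold change of 0.91 came to 0.20 without that library. Cfap36, the most abundant member per kilobase, was at -0.16, and at 0.0135 without Gel+US 3.

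**Figure D3:**
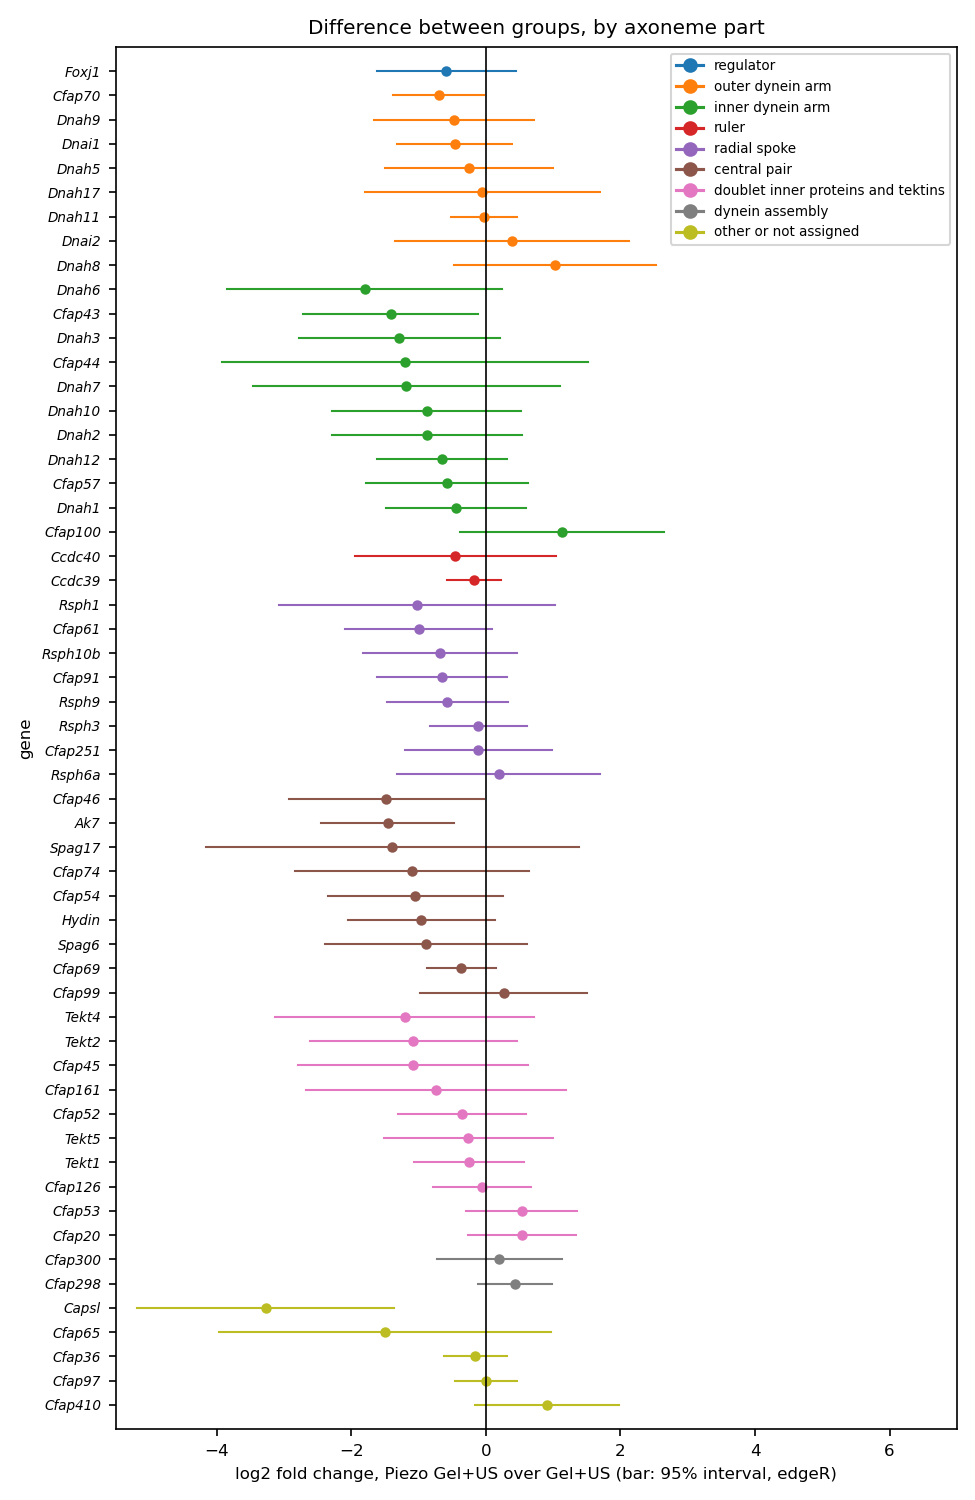
Points are log2 fold changes of Piezo Gel+US over Gel+US for the 56 tested members, bars their 95% intervals from edgeR, and colours the axoneme parts. Most points lie left of 0, 45 of 56, while most intervals include 0.

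The members highest in Piezo Gel+US 2, 9 of the 56 or 16.1%, included 4 of the 5 with the most signal per kilobase, Cfap410, Cfap20, Cfap298 and Cfap100. Over all genes, 29.2% were highest in that library. The 10 members too low to test had 13 to 113 counts over the 6 libraries, and 9 of them had a lower mean CPM in Piezo Gel+US, the exception being Rsph14. Most of the 10 were highest in Gel+US 2. Neither share was computed over all untested genes, so neither the 9 nor those highest in Gel+US 2 are a result about the members.

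Other axoneme genes, listed by complex under symbols outside the rule, gave smaller medians. Of 10 tested dynein light chain and docking genes 8 were lower, with a median of -0.50 and Dynlrb2, a ciliary dynein light chain, at -2.52. Dynlrb2 had 0.320, 0.0503 and 0.155 CPM in Piezo Gel+US and 0.852, 1.44 and 0.802 CPM in Gel+US. Like Capsl, it passed the count filter only through its Gel+US libraries, so its lower level and lack of overlap are no support for a difference. Of 11 genes of the nexin-dynein regulatory complex, which links neighbouring doublets, 8 were lower, with a median of -0.24, Iqca1 at -1.89 and Drc1 at -0.60. Of 16 other central-pair and spoke genes 13 were lower, with a median of -0.33, Ropn1l at -1.80 and Nme5 at -1.25. Of 12 other doublet inner proteins 10 were lower, with a median of -0.29, Spaca9 at -2.13 and Fam166b at -1.75. None passed the adjusted threshold in these lists. Without both libraries numbered 2 the median was -0.063 for the light chain and docking genes and -0.036 for the nexin-dynein genes. It was -0.16 for the other central-pair and spoke genes and -0.29 for the other doublet inner proteins.

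Intraflagellar transport and Bardet-Biedl genes, which serve motile and immotile cilia alike, were even in direction only with all 6 libraries. Of 29 tested, 14 were lower and 15 higher, with a median of 0.01 on the log2 scale, Bbs2 at 0.42 and Wdr34 at 0.43. Without Piezo Gel+US 2, 20 were lower, with a median of -0.061, and without Gel+US 3, 10 were lower, with a median of 0.049. Without both libraries numbered 2, 20 were lower, with a median of -0.099. Ependymal markers outside the members had a median of -0.61, with 11 of 15 lower and 4 higher. Spaca9 and Ttll9 had the lowest p of these, and Ttll9 was at 0.65. Mia was the highest, at 1.44, or 0.12 without Piezo Gel+US 2. Ccdc153, Adgb and Spaca9, all lower, were also counted in the axoneme lists above. Mns1, lower too, was counted among both the assembly factors and the other doublet inner proteins, so that the lists are not independent. The summed level of the ependymal markers was 156 to 247 CPM in Piezo Gel+US and 186 to 283 CPM in Gel+US, most of it from Tppp3, at 79.3 to 192 CPM in Piezo Gel+US and 76.0 to 235 CPM in Gel+US. Their median was -0.20 without both libraries numbered 2, and Sntn, a marker of ciliary tips, had 0 counts in all libraries. Male germ cell markers were near absent, with 6 of 10 matched rows at 0 in all libraries, a sum of 0.800 to 0.983 CPM in Piezo Gel+US and of 0.601 to 1.00 CPM in Gel+US, and 1 tested gene at 0.40.

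**Figure D4:**
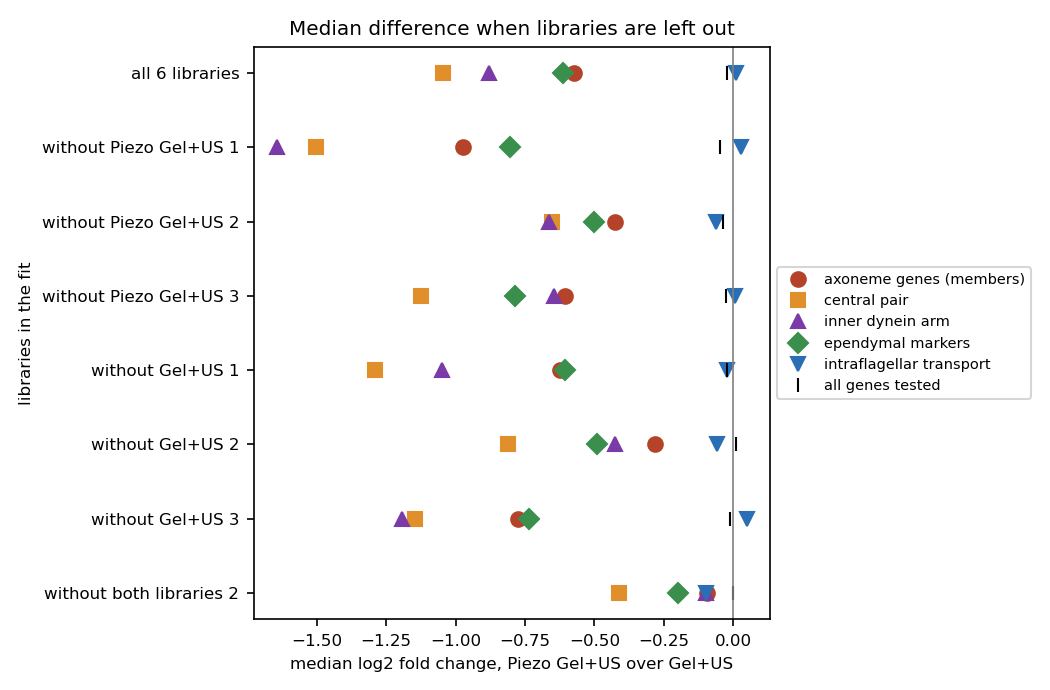
Medians of log2 fold change, Piezo Gel+US over Gel+US, for the axoneme genes, 2 of their parts, 2 other lists and all genes tested, with all 6 libraries and with libraries left out. The members' median lay between -0.97 and -0.28 with 1 library left out and at -0.09 without both libraries numbered 2, while all genes stayed near 0.

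Markers of neural tissue were abundant, as the label spinal cord implies, with astrocyte markers summing to 2730 to 6210 CPM in Piezo Gel+US and 4290 to 6280 CPM in Gel+US. Oligodendrocyte markers summed to 10400 to 21700 CPM in Piezo Gel+US and 11200 to 21300 CPM in Gel+US. Median log2 fold changes were -0.19 for 10 astrocyte genes, 0.01 for 10 oligodendrocyte genes, 0.07 for 10 fibroblast and meningeal genes and -0.03 for 8 endothelial genes. They were -0.33 for 10 microglia and macrophage genes, -0.64 for 6 T cell genes and -0.095 for 5 choroid plexus genes. Single libraries set several of these. Without Piezo Gel+US 2 the median was 0.13 for astrocyte genes, 0.022 for microglia and macrophage genes, 0.20 for oligodendrocyte genes, 0.042 for endothelial genes and -0.84 for fibroblast and meningeal genes. Without Gel+US 2 it was 1.56 for fibroblast and meningeal genes, 1.104 for T cell genes and 0.31 for choroid plexus genes.

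**Figure D5:**
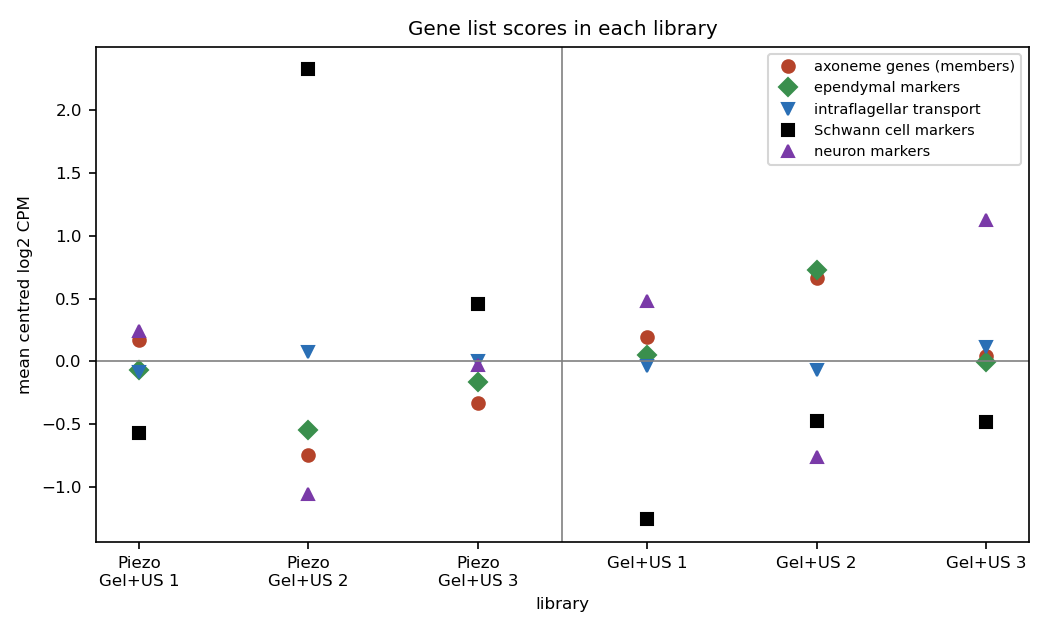
Each point is the mean over a gene list of log2 CPM centred on each gene's mean over the 6 libraries, for 1 library. The axoneme genes and the ependymal markers lie lowest in Piezo Gel+US 2 and highest in Gel+US 2, and the Schwann cell markers lie highest in Piezo Gel+US 2.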

How the data were processed

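Gene counts for 6 libraries were used as deposited by the authors. The submitters' processing notes name HISAT2 2.0.5, fastp 0.19.7, DESeq2 1.20.0 and featureCounts 1.5.0-p3 without their roles, and the sources used here name no genome build. Per the labels' protocols, polyadenylated RNA was selected and strand was kept with dUTP. Genes were kept by edgeR's default filter (minimum count 10, minimum total 15), leaving 17066 of 33455, and tested with edgeR 4.0.16 (R 4.3.3), TMM factors and the quasi-likelihood test on group alone, 3 libraries against 3, with Benjamini-Hochberg adjustment over all of them. The common biological coefficient of variation was 0.382. Scores used log2 CPM with a prior count of 2. DESeq2 1.42.0, limma 3.58.1 and other filters and scalings were tried as alternatives.

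Members and lists were chosen with earlier results of these data known. Of 281 list entries, 228 matched by symbol and 17 by a unique protein match, and 36 were left out; a listed marker that is not reported here was taken out of its list. Named members were those the rule names singly, the 3 with the lowest p and the 2 with the highest CPM per kilobase in each part, those with an unadjusted p below 0.05, the 3 highest fold changes, and the 2 lowest p of each list; other members named in the text were chosen after their values were seen. Libraries with the same replicate number deviated together over all genes (correlations 0.253, 0.296 and 0.251; the highest other pair was 0.198), although the labels do not say what a number marks. The fitting script was tested on simulated data. Promoter sequences come from RefSeq (GRCr8), matched by symbol, since none of the table's gene identifiers were found there.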

Additional observations from a re-analysis of the deposited data

How the results depend on the processing

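Every alternative called 0 genes. With DESeq2, 10 of 66 members were lower at an unadjusted p below 0.05 (15.2%, against 1.09% of all genes), the lowest adjusted p of a member was 0.833, and the median of the unassigned members was -0.93, against -0.92 with no filter. A fit with the replicate number as a block was tried because libraries of the same number deviated together, although the labels do not say that they are paired. In it 7 members were lower (12.5%, against 2.83% of all genes) and 1 higher (1.79%, against 2.95%) at an unadjusted edgeR p below 0.05. The members' median was -0.56 and the lowest adjusted p was 0.855. Leaving out 1 library gave 2 lower members (3.51%, against 2.02% of all genes, without Gel+US 2) to 12 (20%, against 1.32%, without Piezo Gel+US 1), and 0 to 2 higher ones (3.33% at most, against 2.51%). The members' median then ran between -0.97 and -0.28, the central pair between -1.50 and -0.65, the inner arm between -1.64 and -0.43, the outer arm between -0.53 and -0.10 and the unassigned members between -0.31 and 0.0135. Of the 56 tested members, 15 turned sign with 1 library left out and 12 without both libraries numbered 2. Among those named by rule, the ranges were -0.049 to 0.96 for Cfap99, -0.28 to 0.48 for Cfap300, -0.73 to 0.16 for Dnah5, -0.26 to 0.12 for Cfap126 and -0.31 to 0.0135 for Cfap36. Without both libraries numbered 2, chosen after seeing the data, 2 members were lower (3.57%, against 2.36% of all genes) and 1 higher (1.79%, against 2.95%) at that level. The medians were then -0.094 for members, -0.41 for the central pair, -0.096 for the inner arm, -0.28 for the unassigned and -0.13 for the spokes, and Foxj1 stood at 0.11, Ccdc40 at 0.36, Cfap300 at -0.28 and Dnah5 at 0.019. The causes were not tested. With 3 libraries a group, members of a few counts per library, such as Capsl and Spag17, are limited by depth.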

Other observations

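Neurons that contact the cerebrospinal fluid sit beside the ependyma, and 2 of their 5 listed markers were tested. Pkd1l2, a channel-like protein of these neurons, had 1.07, 1.46 and 0.828 CPM in Piezo Gel+US and 3.66, 11.7 and 1.30 CPM in Gel+US, with overlapping ranges, a log2 fold change of -2.30 and an unadjusted edgeR p of 0.0253. Neither tested marker passed the adjusted threshold, with a lowest adjusted edgeR p of 0.994. Over all genes tested, 0.721% were lower at an unadjusted edgeR p below 0.05. Without Gel+US 2 the log2 fold change of Pkd1l2 was -1.15. Gata3, a transcription factor of these neurons, was at 0.0094 on the same scale, between -0.37 and 0.39 with 1 library left out.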
